A study of Caenorhabditis elegans with 59 samples.

Results

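miR-42 is 1 of the 8 members of the miR-35 family of Caenorhabditis elegans, and its guide strand, the strand that is loaded into Argonaute, is described here as 1 row of the 310 guide and passenger rows of a miRNA count table made from 59 small-RNA libraries. The row was taken by its name, mir-42, in all stages, genotypes and experiments, together with its passenger row, mir-42*, and an extra row, mir-42_g8t, that was counted only in libraries of the experiment on mir-43 alleles. In the WBcel235 build, the hairpin cel-mir-42 (WBGene00003270) lies on the plus strand of chromosome II from 11889811 to 11889905, a miRNA gene of 95 bases. The hairpin of miR-43 begins after a gap of 4 bases, that of miR-44 after a gap of 117 bases, and the 3 are cut from the same primary transcript. The hairpins of miR-35 to miR-41 form another cluster on the same strand, between 351406 and 352106 bases upstream. A noncoding RNA annotated on the minus strand, ZK930.12 (WBGene00201365, 11889830 to 11889998), overlaps the hairpin.

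The time course held ebax-1(tm2321) null worms and wild-type worms as early embryos, late embryos, L1, L2, L3 and L4 larvae and gravid adults, each with 2 libraries per genotype. It also held ebax-1(tm2321);glp-4(bn2) and glp-4(bn2) adults, in which the temperature-sensitive glp-4 allele, carried by both groups, leaves little germline. The late embryos were kept in buffer before harvest, and the L1 larvae hatched without food. The germline-depleted adults were raised at 25 °C, whereas the gravid adults and all other groups of the time course were kept at 20 °C. The gravid adults also had more hours on food than the germline-depleted adults. Their libraries, of both genotypes, came from an earlier study, so any comparison of gravid adults with another stage is also one between studies. A second experiment compared L1 larvae with another null allele, ebax-1(ju699), with wild-type L1 larvae at 20 °C, 2 libraries each. In the mir-43 experiment, L4 larvae at 20 °C carried a wild-type or a Cas9-edited mir-43 gene, with or without ebax-1(tm2321). The edited alleles were mir-43(M1), with an inverted seed, mir-43(M2), with a changed 3′ region, and mir-43(M3), with a 3′ region replaced by that of another miRNA, and in each the passenger side of the hairpin was changed to match. Each of these 8 groups had 3 libraries, except ebax-1(tm2321) with wild-type mir-43, which had 2. Every library was made from whole worms or embryos, so fewer cells that express miR-42 and less miR-42 per cell cannot be told apart.

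A miRNA hairpin is cut into a duplex, of which the guide strand stays in Argonaute and the passenger strand is usually degraded soon after loading. The guide recognises mRNAs mainly through its seed, nucleotides 2 to 8, and the members of the miR-35 family share a seed. The family is abundant in embryos, is needed for embryonic development and falls as larvae hatch. EBAX-1 is the nematode ortholog of mammalian ZSWIM8, the substrate receptor of a ubiquitin ligase that acts in target-directed miRNA degradation. In that pathway, pairing of a miRNA to a trigger transcript leads to loss of the Argonaute that holds it, so the guide strand is affected after the passenger strand has left.

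Levels are counts per 1000000 miRNA counts of a library (CPM). The libraries held between 302789 and 20538418 miRNA counts, and the mir-43 experiment held the shallowest, ebax-1(tm2321);mir-43(M3) replicate 2. The stages were checked with the heterochronic miRNAs lin-4, let-7, miR-48, miR-84 and miR-241, which rise as larvae develop. lin-4 had at most 38.5 CPM in embryo libraries and at least 10163 CPM from L2 onward, and none of the 5 was at 0 in any group. Their summed level did not overlap between genotypes in several stages. It was 56.6 to 56.9 CPM in ebax-1(tm2321) early embryos and 85.7 to 97.8 CPM in wild-type early embryos, and 601 to 1312 CPM in ebax-1(tm2321) L1 larvae and 205 to 476 CPM in wild-type L1 larvae. In L3 it was 34536 to 36658 CPM in ebax-1(tm2321) and 37141 to 37911 CPM in wild type, and in L4 it was 51843 to 54869 CPM in ebax-1(tm2321) and 57069 to 65904 CPM in wild type. In L2 the genotypes overlapped but the mutant libraries were far apart, with 11626 to 20201 CPM in ebax-1(tm2321) and 19346 to 22105 CPM in wild type. The part of the heterochronic miRNAs in the miR-42 differences of these stages was not tested.

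In control worms, the miR-42 guide was most abundant in embryos and had a second, smaller peak in L2. It had 19133 and 15967 CPM in wild-type early embryos, 14376 and 14383 CPM in late embryos, and 1903 and 1456 CPM in L1 larvae. It then had 7753 and 7189 CPM in L2, 1730 and 2060 CPM in L3, 3040 and 2649 CPM in L4 and 2249 and 1687 CPM in gravid adults. The glp-4(bn2) adults were lowest, with 248 and 739 CPM. By their means, the order was early embryo (17550 ± 2238 CPM, SD, n = 2), late embryo (14380 ± 4.99 CPM), L2 (7471 ± 399 CPM) and L4 (2844 ± 277 CPM), each apart from the next. Gravid adults (1968 ± 397 CPM), L3 (1895 ± 234 CPM) and L1 (1679 ± 317 CPM) followed with overlapping libraries, and the glp-4(bn2) adults (494 ± 347 CPM) stood below them. Among the 303 strands of the time course, the guide ranked between 16 in early embryos and 71 in glp-4(bn2) adults by mean level in these controls.

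**Figure D1:**
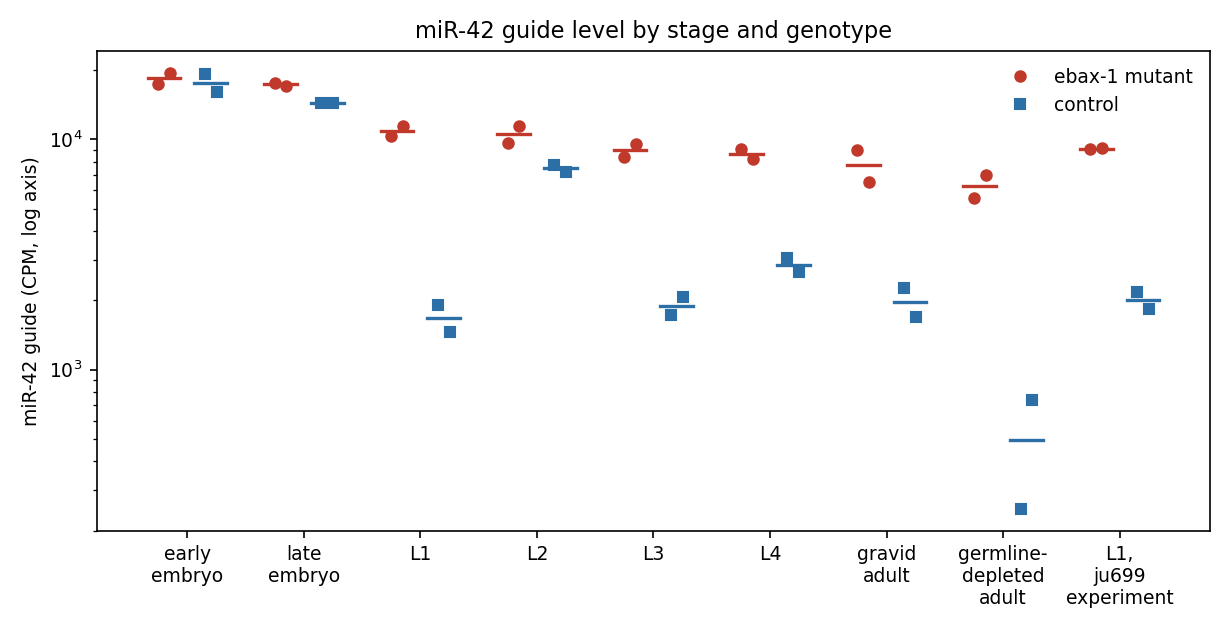
CPM of the miR-42 guide (log axis) in each library by stage, with ebax-1 mutants (red circles) left of their controls (blue squares) and a line at each group's mean (n = 2 libraries per group). The controls fell to 1679 CPM on average in L1, stood at 7471 CPM in L2 and were lowest, at 494 CPM, in germline-depleted adults, whereas the mutants stayed between 6277 and 18415 CPM on average.

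The larval peak in the controls was larger than the spread between libraries. The L2 level was known when this row was chosen, so the p-values for L2 below describe the peak and are no independent support. Neighbouring stages were compared with the edgeR quasi-likelihood test, with Benjamini-Hochberg adjustment over all strands tested and a threshold of 0.05, and each stage's libraries enter both comparisons that touch it. Between L2 and L1 the log2 fold change was 2.19 (SE 0.17, 4.55-fold, adjusted p = 4.0e-06), in a comparison in which 28.8% of strands were called higher. Between L3 and L2 it was -2.08 (SE 0.15, adjusted p = 1.2e-05), with 27.9% of strands called lower. Between L1 and late embryos the guide had fallen by 3.19 on the log2 scale (SE 0.12, adjusted p = 3.6e-09, 42.7% of strands called lower).

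The smaller changes between control stages were less firm. The guide was lower in late than in early embryos by a log2 fold change of -0.78 (SE 0.10, adjusted p = 7.0e-06), where 45.1% of strands were called lower, but the same change was -0.40 (adjusted p = 0.22) when all time-course libraries shared 1 fit. Its size also depends on scaling, since the early embryo mean in CPM was only 1.22 times the late embryo mean. Scaling by library totals alone moved the median strand by 0.50 on the log2 scale here, the highest shift of all comparisons. It was higher in L4 than in L3 by 0.53 (SE 0.14, adjusted p = 0.017, 25.4% of strands called higher), a call that ended without L3 wild-type replicate 1 (0.13) or L4 wild-type replicate 1 (0.078). The difference between gravid adults and L4 larvae, -0.53, was not past the threshold (SE 0.21, adjusted p = 0.089, 14.7% of strands called lower). The glp-4(bn2) adults were lower than wild-type gravid adults by a log2 fold change of -1.86 (SE 0.44, adjusted p = 0.014, 23.2% of strands called lower), and without gravid wild-type replicate 1 the adjusted p was 0.075. Germline, temperature, hours on food and the study that made the libraries cannot be told apart in this last comparison. Stage and study cannot be told apart between gravid adults and L4 larvae.

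The 7 other guides of the family did not share the L2 peak. Their log2 fold changes between L2 and L1 in wild-type larvae lay between -1.03 and -0.23, and 4 of 7 were called lower, where 14.2% of strands were, and 0 higher. From late embryos to L1 all 7 fell further than miR-42, by -4.71 to -3.83 on the log2 scale. Between gravid adults and L4, where miR-42 did not pass the threshold, 6 of 7 were called higher, where 10.3% of strands were, with values between 0.68 and 4.04. Between glp-4(bn2) adults and gravid adults all 7 were called lower, where 23.2% of strands were, with values between -6.56 and -3.09. Of the strands on the miR-42 transcript, the miR-43 guide averaged 6168 CPM in wild-type L1 and 5597 CPM in L2, and its passenger 25.6 and 23.8 CPM. The miR-44 guide, counted with miR-45, was higher in L2, with 14340.5 CPM in L1 and 20262 CPM in L2, as was mir-44*, with 28.2 and 48.5 CPM.

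In ebax-1 mutants the guide stayed high after hatching and showed no separate L2 peak. It had 17366 and 19465 CPM in ebax-1(tm2321) early embryos, 17606 and 17083 CPM in late embryos, 10370 and 11399 CPM in L1, 9639 and 11426 CPM in L2, and 8402 and 9576 CPM in L3. It had 9088 and 8186 CPM in L4 and 8990 and 6518 CPM in gravid adults. In ebax-1(tm2321);glp-4(bn2) adults it had 5532 and 7022 CPM. The highest group mean was 2.93 times the lowest across the mutants, against 35.5 times across the controls.

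In the mutants, the libraries of the early and late embryos overlapped, those of L1 and L2 overlapped, and from L3 on each group overlapped the next in the order of means. The guide was called lower in late than in early mutant embryos (log2 fold change -0.40, SE 0.10, adjusted p = 0.0021, 42.6% of strands called lower) and lower in mutant L1 than in mutant late embryos (-0.73, SE 0.11, adjusted p = 1.6e-04, 38.8% called lower). The call between the embryo stages was lost when libraries were scaled by their totals alone (-0.09, adjusted p = 0.30). From there on no step passed the threshold. The changes were -0.23 between L2 and L1 (adjusted p = 0.27, 25% of strands called lower), -0.22 between L3 and L2 (0.24, 23.7%), -0.00 between L4 and L3 (0.99, 10.7%), -0.18 between gravid adults and L4 (0.61, 11.2%) and -0.13 between germline-depleted and gravid adults (0.85, 17.3%).

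The question behind the genotype comparison was whether loss of EBAX-1 raises the level of a miRNA, and for these comparisons the threshold was an adjusted p of 0.01. In L1, the guide had 10370 and 11399 CPM in ebax-1(tm2321) larvae, against 1903 and 1456 CPM in wild-type larvae. This gave a log2 fold change of 2.88 (SE 0.16, 7.37-fold, adjusted p = 6.1e-05), where 7.25% of strands were called higher. In L3, with 8402 and 9576 CPM in mutants and 1730 and 2060 CPM in wild type, it was 2.37 (SE 0.13, 5.17-fold, adjusted p = 2.0e-04, 8.29% of strands called higher). In L4, with 9088 and 8186 CPM in mutants and 3040 and 2649 CPM in wild type, it was 1.76 (SE 0.17, 3.38-fold, adjusted p = 9.0e-04, 5.38% called higher). In all 3 stages both mutant libraries were above both wild-type libraries. The L4 call was lost without wild-type replicate 1 (adjusted p = 0.018) or wild-type replicate 2 (0.055), and with the replicate number as a block (0.013).

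In L2, the stage of the control peak, the mutants were above wild type by less, with 9639 and 11426 CPM against 7753 and 7189 CPM. The libraries did not overlap, but the log2 fold change of 0.55 (SE 0.20, 1.47-fold) was not past the threshold (adjusted p = 0.10, 6.25% of strands called higher). In early embryos the libraries of the genotypes overlapped, with 17366 and 19465 CPM in mutants and 19133 and 15967 CPM in wild type, a log2 fold change of 0.16 (SE 0.11, adjusted p = 0.26, 15.5% of strands called higher). In late embryos the mutants, with 17606 and 17083 CPM, were above wild type, with 14376 and 14383 CPM. That difference was 0.45 on the log2 scale (SE 0.03, 1.37-fold, adjusted p = 8.3e-09, 13.4% of strands called higher). The wild-type late embryo pair was nearly equal in miR-42, and with a spread shared by all time-course libraries the value was 0.49 and the call was lost (adjusted p = 0.65).

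In adults the fold differences were large and the libraries apart, but neither passed the threshold in its own fit. In gravid adults the guide had 8990 and 6518 CPM in ebax-1(tm2321) worms and 2249 and 1687 CPM in wild-type worms. The log2 fold change was 2.09 (SE 0.28, 4.26-fold, adjusted p = 0.017), in a comparison where 0.448% of strands, 1 of 223, were called higher. With DESeq2 the adjusted p was 1.3e-08, and with 1 fit of all time-course libraries it was 1.8e-05.

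In germline-depleted adults the guide had 5532 and 7022 CPM in ebax-1(tm2321);glp-4(bn2) worms and 248 and 739 CPM in glp-4(bn2) worms. The log2 fold change, 3.71 (SE 0.56, 13.1-fold), was the highest of the 8 stages, with an adjusted p of 0.017 where 5.83% of strands were called higher. It passed the threshold in every alternative tried, with DESeq2 (6.3e-11), with no filter on low values (0.0083) and without any 1 of the 4 libraries among them. The fold change was 3.14 to 4.67 on the log2 scale without 1 library, the 2 glp-4(bn2) libraries being 248 and 739 CPM.

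The second null allele was compared in L1. The guide had 9024 and 9150 CPM in ebax-1(ju699) larvae and 2175 and 1824 CPM in the wild-type larvae of that experiment, with no overlap. The log2 fold change was 2.49 (SE 0.13, 5.61-fold, adjusted p = 0.0016, 4.65% of strands called higher). The difference between the effects of ju699 and tm2321 in L1 was -0.41 (SE 0.20, adjusted p = 0.38). Here the summed level of the 5 heterochronic miRNAs was 295 to 441 CPM in ju699 larvae and 517 to 520 CPM in wild-type larvae, the opposite order to that in the tm2321 comparison.

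The effect of ebax-1 on miR-42 differed between neighbouring stages, by a test of the difference of the log2 fold changes at a threshold of 0.05. It was higher in L1 than in late embryos by 2.46 (SE 0.16, adjusted p = 1.0e-06, 5.34% of strands called higher), lower in L2 than in L1 by -2.41 (SE 0.23, adjusted p = 1.3e-04, 3.77% called lower), and higher in L3 than in L2 by 1.86 (SE 0.21, adjusted p = 0.0041, 5.94% called higher). Between late and early embryos the difference was 0.38 (SE 0.14, adjusted p = 0.044, 25.5% called higher), a call that was lost under all 5 other settings of scaling, filter or model and without 7 of the 8 libraries in turn. The steps from L3 to L4 (-0.53, adjusted p = 0.17), from L4 to gravid adults (0.34, 0.64) and between the adult groups (1.73, 0.31) were not past the threshold.

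**Figure D2:**
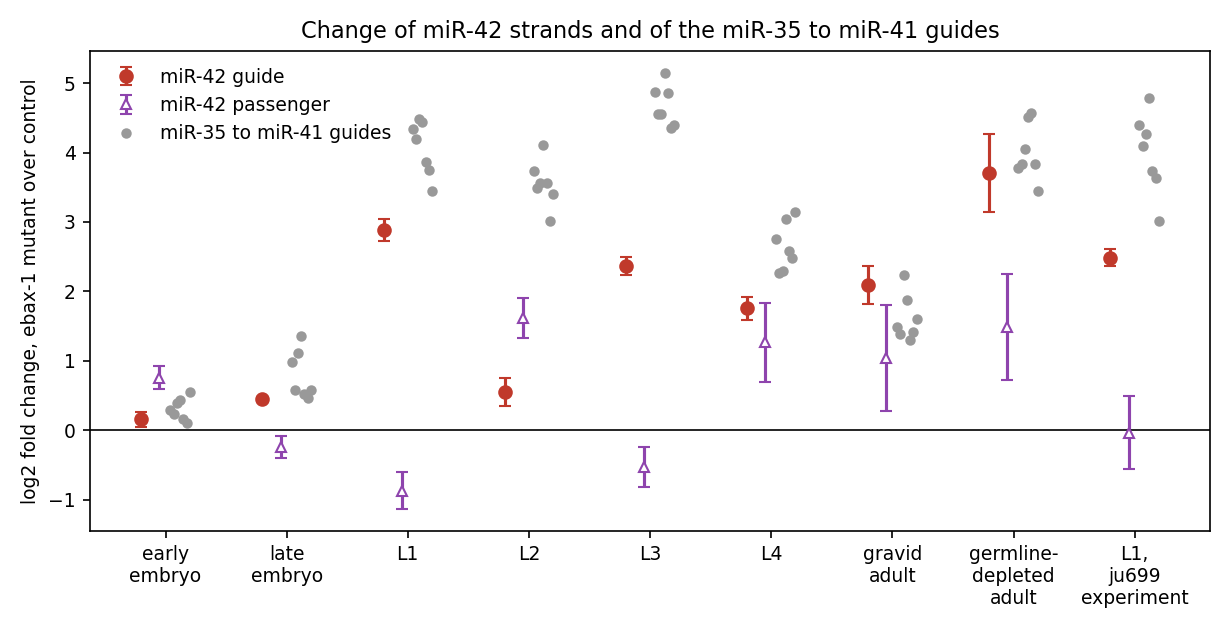
log2 fold change of ebax-1 mutants over their controls by stage, for the miR-42 guide (red circles) and passenger (purple triangles), with bars of 1 SE from edgeR, and for each of the 7 guides miR-35 to miR-41 (grey points). The miR-42 guide is at 2.88 in L1, 0.55 in L2 and 2.37 in L3, below all 7 other guides in these stages, while its passenger is at 1.62 in L2.

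The 7 other guides of the family had higher fold changes in larvae, a difference that was not tested. All 7 were called higher in L1 (log2 fold changes 3.45 to 4.49), L2 (3.02 to 4.11), L3 (4.36 to 5.15) and L4 (2.27 to 3.14), and in each of these stages every one was above miR-42. In L2, where miR-42 stood at 0.55, the median of the 7 was 3.56. In late embryos all 7 were also called higher (0.46 to 1.36), where 13.4% of strands were, and in early embryos 3 of 7 (0.10 to 0.55), where 15.5% were. In gravid adults 0 of 7 were called in the edgeR test, where 0.448% of strands were. Their values there were between 1.30 and 2.24, and miR-42 was above 6 of them. In germline-depleted adults 4 of 7 were called (3.45 to 4.57, 5.83% of strands), and in ju699 larvae 5 of 7 (3.01 to 4.78, 4.65% of strands). Reads of such related strands were assigned by the study from their first 19 bases, so a read with an error could be lost or counted for another member.

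As a share of all miR-35 family guide counts, miR-42 was a minor member in embryos. Among controls it was the largest single member in wild-type L2, L3 and L4 larvae and in glp-4(bn2) adults. It made up 4.25% and 4.56% of family counts in ebax-1(tm2321) early embryos and 5.08% and 4.55% in wild-type early embryos. In L1 it was 7.33% and 7.41% in mutants and 16.4% and 14.3% in wild type. In L2 it was 12.5% and 14.4% in mutants and 54.3% and 57.2% in wild type, and in L3 it was 23.9% and 24.5% in mutants and 58.9% and 63.2% in wild type. In these larval stages the genotypes did not overlap, and the wild-type share was the higher.

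The shares drew nearer in later stages. In L4 miR-42 made up 34.9% and 33.2% of family counts in mutants and 50.0% and 46.9% in wild type. In gravid adults it was 8.03% and 14.8% in mutants and 6.36% and 7.77% in wild type, the stage in which both mutant libraries had the higher share. In germline-depleted adults it was 40.5% and 41.0% in ebax-1(tm2321);glp-4(bn2) worms and 41.6% and 47.5% in glp-4(bn2) worms. In L4 of the mir-43 experiment it was 26.5% to 27.2% in ebax-1(tm2321) larvae and 29.8% to 50.5% in wild-type larvae.

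**Figure D3:**
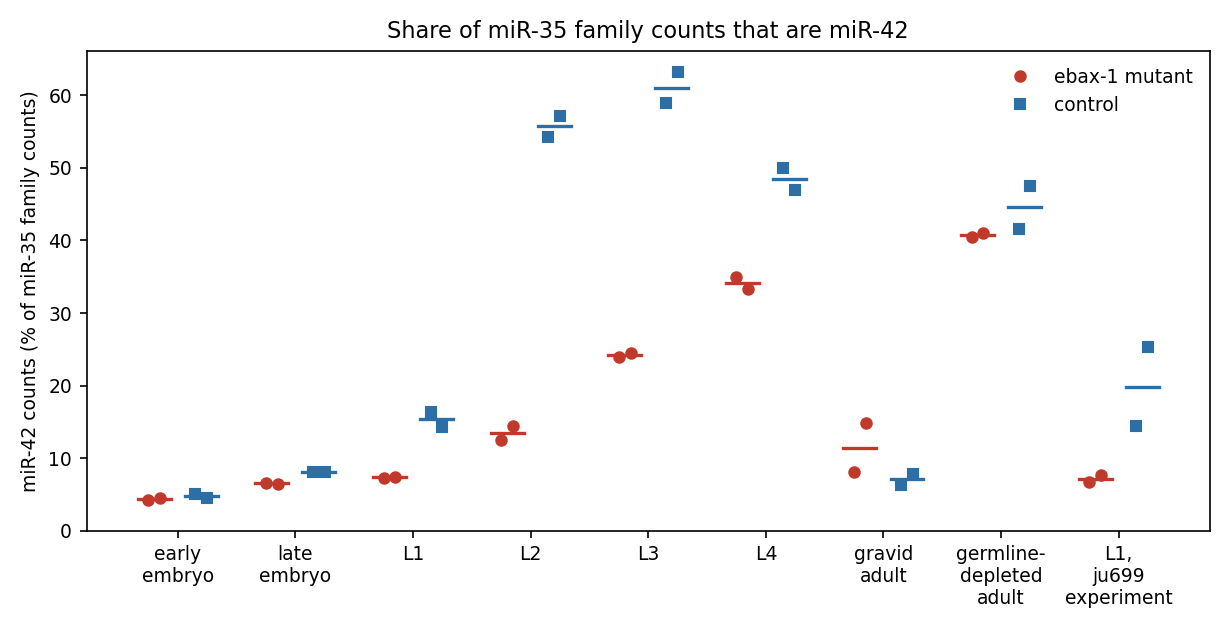
Share of miR-35 family guide counts that were miR-42 (percent) in each library by stage, with ebax-1 mutants (red circles) left of their controls (blue squares) and a line at each mean. The controls reach 54.3% to 63.2% in L2 and L3, against 12.5% to 24.5% in the mutants, and both groups are at 40.5% to 47.5% in germline-depleted adults.

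The passenger strand mir-42*, which reports on production of the hairpin without the guide's later fate, was scarce outside early embryos. It had 194 and 233 CPM in ebax-1(tm2321) early embryos and 135 and 138 CPM in wild-type early embryos, a log2 fold change of 0.75 (SE 0.17, adjusted p = 1.0e-04). In wild-type late embryos it had 11.3 and 13.9 CPM, lower than in early embryos by a log2 fold change of -3.93 (adjusted p = 5.8e-12). The guide fell by 0.78 on the same scale over that step.

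In L1 the passenger had 10.8 and 7.50 CPM in mutants and 15.5 and 22.4 CPM in wild type, below wild type in both libraries while the guide was above. The log2 fold change was -0.87 (SE 0.26, adjusted p = 0.10). In L2 it had 49.2 and 40.3 CPM in mutants and 15.3 and 15.0 CPM in wild type, a log2 fold change of 1.62 (SE 0.29, 3.07-fold, adjusted p = 0.0034). The guide's peak in wild-type L2 larvae was not matched by the passenger, which differed from L1 by -0.30 (adjusted p = 0.43). In the mutants the passenger was higher in L2 than in L1 by 2.12 (adjusted p = 1.6e-04) and lower in L3 than in L2 by -1.80 (adjusted p = 0.0012).

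At the other stages the passenger did not pass the threshold. In L3 it had 17.5 and 10.1 CPM in mutants and 18.5 and 21.7 CPM in wild type (log2 fold change -0.53, adjusted p = 0.22). In L4 it had 26.2 and 16.7 CPM in mutants and 15.6 and 4.05 CPM in wild type (1.27, adjusted p = 0.19). In gravid adults it had 78.6 and 15.9 CPM in mutants and 36.8 and 12.7 CPM in wild type (1.05, adjusted p = 0.62). The genotypes overlapped there, although the mutant library was the higher one within each replicate number. In germline-depleted adults it had 4.28 and 21.4 CPM in ebax-1(tm2321);glp-4(bn2) worms and 5.54 and 3.66 CPM in glp-4(bn2) worms (1.49, adjusted p = 0.26), and in L1 of the second allele 14.4 and 18.7 CPM in ju699 larvae and 31.5 and 10.3 CPM in wild type (-0.04, adjusted p = 0.98). Reads were assigned by sequence, so the antisense noncoding RNA adds to neither row.

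The ratio of guide to passenger, each as CPM + 1, was compared within libraries with limma at a threshold of 0.05. Limma shares the spread over all hairpins tested, so these p-values do not rest on the spread of the miR-42 ratio alone. In ju699 larvae and in gravid adults every tested guide from miR-35 to miR-44 had the same SE, 0.43 and 0.52. In L1 it was 878 and 1341 in mutants and 116 and 62.3 in wild type, a log2 difference of 3.68 (SE 0.23, adjusted p = 4.1e-21, 20.3% of ratios called higher). In L3 it was 453 and 863 in mutants and 88.7 and 90.8 in wild type (2.80, SE 0.33, adjusted p = 0.0041, 16.7% called higher). In late embryos it was 1525 and 1812 in mutants and 1169 and 964 in wild type (0.65, SE 0.14, adjusted p = 5.4e-05, 24.4% called higher). In ju699 L1 larvae the ratio ranged over 464 to 587, against 66.9 to 162 in their wild type (2.33, SE 0.43, adjusted p = 3.2e-06, 15.8% called higher), and that call was lost without wild-type replicate 1 (0.14) and with the replicate number as a block (0.15).

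In L2 and in early embryos the mutant ratio was the lower one. In L2 it was 192 and 277 in mutants and 475 and 451 in wild type, lower in the mutants by -1.01 on the log2 scale (SE 0.31, adjusted p = 0.039, 11.4% of ratios called lower). The call was lost with a pseudocount of 5 CPM (0.061), with the block (0.12) and without wild-type replicate 1 (0.41), wild-type replicate 2 (0.31) or mutant replicate 1 (0.061). In early embryos it was 88.9 and 83.1 in mutants and 141 and 115 in wild type, without overlap, and the difference of -0.56 was not past the threshold (adjusted p = 0.056) but was with a pseudocount of 5 CPM (-0.55, adjusted p = 0.030). The ratio did not pass the threshold in L4 (0.35, 0.78), gravid adults (1.28, 0.26) or germline-depleted adults (2.88, 0.14).

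**Figure D4:**
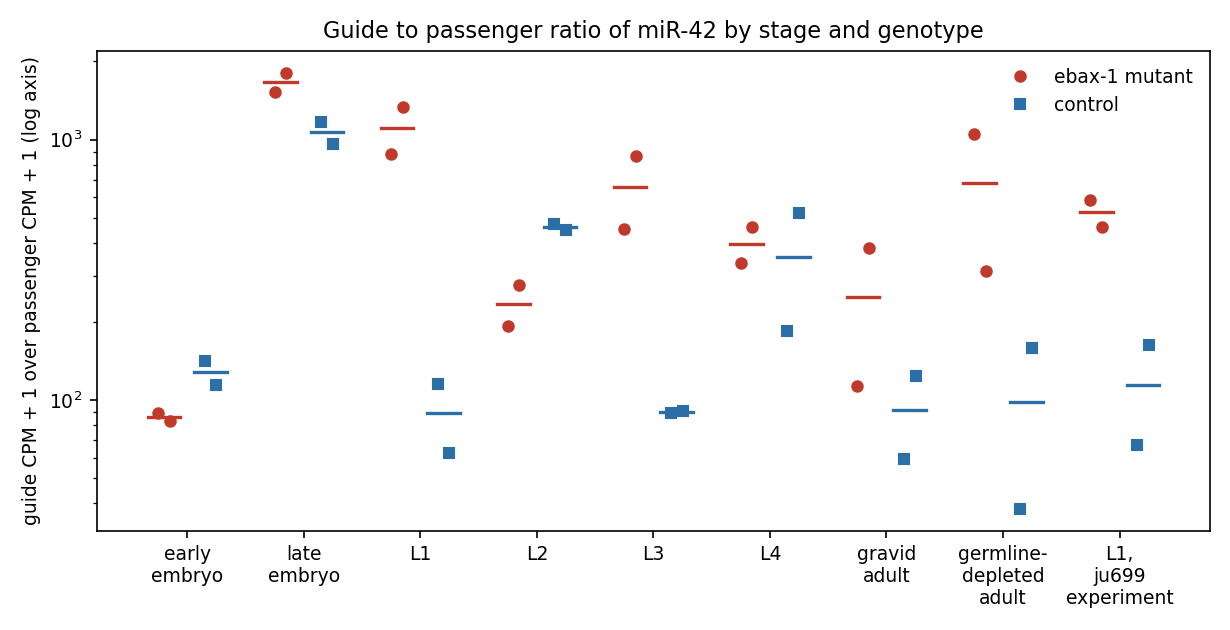
Ratio of the miR-42 guide to its passenger, (CPM + 1) over (CPM + 1) on a log axis, in each library by stage, with ebax-1 mutants (red circles) left of their controls (blue squares) and a line at each mean. In L1 the mutants are at 878 and 1341 and wild type at 116 and 62.3, and in L2 the order is turned, with 192 and 277 in the mutants and 475 and 451 in wild type.

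The other hairpins of the transcript gave these values. The passengers mir-43* and mir-44* were also higher in ebax-1(tm2321) L2 larvae, with log2 fold changes of 1.52 (adjusted p = 0.0083) and 1.25 (adjusted p = 0.0084), and in early embryos, with 0.69 (1.8e-04) and 0.57 (0.0010). Passengers of miR-35 to miR-41 passed in early embryos, 4 of 7, where 15.5% of strands were called higher. In L2, where 6.25% of strands were, 0 of 6 tested did so. The guide of miR-43, which has another seed, was called higher in mutants in early embryos (0.84), late embryos (0.98), L1 (1.05), L3 (1.93), L4 (3.00) and germline-depleted adults (3.77), and not in L2 (0.32, adjusted p = 0.65) or gravid adults (1.93, adjusted p = 0.035). The guide of miR-44, which was counted together with the identical miR-45, was called higher in early embryos (0.53), late embryos (1.05) and L1 (0.75), and in no later stage, with 0.37 in L2 (adjusted p = 0.23), 0.25 in L3 (0.11), 0.79 in L4 (0.027), 0.90 in germline-depleted adults (0.028) and 0.91 in gravid ones (0.11).

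Over the 16 groups of the time course and 222 strands, the strands whose mean log2(CPM + 1) ran most like that of miR-42 were miR-37 (Pearson r = 0.903), miR-43 (0.877), miR-38 (0.872), miR-40 (0.863) and miR-35 (0.861). The passenger mir-42* had r = 0.484 and ranked 61. These values describe 16 points that share libraries, stages and genotypes. Over the control groups alone the order was another one. There miR-37 had r = 0.894 and miR-43 0.820, and passengers such as mir-52* (0.956), mir-62* (0.926) and mir-67* (0.923) stood above both.

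In the mir-43 experiment the neighbouring miR-43 was edited, and the miR-42 row was read in each strain. With wild-type mir-43, the guide had 7025 and 6875 CPM in ebax-1(tm2321) larvae and 1202, 2336 and 3393 CPM in wild-type larvae, with no overlap. The log2 fold change was 1.75 (SE 1.00, adjusted p = 0.22, 4.41% of strands called higher) in the fit of all 23 libraries. With the mir-43(M2) and mir-43(M3) strains left out, in which this row was close to 0 and varied widely on the log scale, the value was 1.72 (SE 0.33, adjusted p = 0.0072). That alternative was chosen after seeing the data. The summed heterochronic miRNAs also did not overlap, with 57897 to 58100 CPM in ebax-1(tm2321) larvae and 63149 to 75957 CPM in wild-type larvae, and their part was not tested. Wild-type replicate 1, with the lowest miR-42 level, also had 2322 CPM of let-7, against 8724 and 12069 CPM in replicates 2 and 3. Without it the effect was 1.46. The difference between the effects of ebax-1 in this L4 experiment and in the time-course L4 was 0.10 (SE 0.51, adjusted p = 0.96).

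An inverted seed in miR-43 left the miR-42 row near its wild-type level. The guide had 2472, 2486 and 2552 CPM in mir-43(M1) larvae and 1202, 2336 and 3393 CPM in wild-type larvae, whose range held all 3 (log2 fold change 0.12, SE 0.90, adjusted p = 0.96). It had 5638, 5666 and 4828 CPM in ebax-1(tm2321);mir-43(M1) larvae and 7025 and 6875 CPM in ebax-1(tm2321) larvae, lower in each library (-0.39, adjusted p = 0.99). Between ebax-1(tm2321);mir-43(M1) and mir-43(M1) the groups did not overlap, and the log2 fold change was 1.23 (SE 0.91, adjusted p = 0.40, 6.17% of strands called higher) with all libraries, 1.22 with those 2 groups only (adjusted p = 3.0e-04) and 1.19 without the M2 and M3 strains (adjusted p = 0.023). The effect of ebax-1 did not pass the threshold for a difference from that with wild-type mir-43 (-0.52, SE 1.35, adjusted p = 0.99).

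In the mir-43(M2) strains the mir-42 row was close to 0, and the counts stood in the row mir-42_g8t. The mir-42 row had 17.9, 5.15 and 90.7 CPM in mir-43(M2) larvae and 1202, 2336 and 3393 CPM in wild-type larvae, so that the lowest wild-type library was 13.3 times the highest mir-43(M2) library. It had 4.32, 2.80 and 0.168 CPM in ebax-1(tm2321);mir-43(M2) larvae and 7025 and 6875 CPM in ebax-1(tm2321) larvae, a gap of 1591 times. The tests gave adjusted p = 0.0016 without ebax-1(tm2321) and 2.0e-05 with it, and 1.76% of strands were called lower in each. The M2 counts were known when this row was chosen, so these p-values are no independent support. The call without ebax-1(tm2321) was lost in a fit of those 2 groups alone (-5.93, adjusted p = 0.028) and without mir-43(M2) replicate 1 (adjusted p = 0.020). The row mir-42_g8t had 728, 772 and 729 CPM in mir-43(M2) larvae and at most 17.3 CPM in the 17 libraries of strains without that allele. It held 88.9% to 99.3% of the counts of the 2 rows in mir-43(M2) larvae and 99.7% or more in ebax-1(tm2321);mir-43(M2) larvae. By its name the row is a variant of miR-42; the sources used here give no base change for it, and none is stated here.

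Summed over both rows, miR-42 in the mir-43(M2) strains remained below its level with wild-type mir-43. The sum was 781 ± 36.9 CPM in mir-43(M2) larvae and 2311 ± 1096 CPM in wild-type larvae (SD, n = 3 each), with 746 to 820 CPM against 1203 to 3395 CPM. It was 1515 ± 135 CPM (n = 3) in ebax-1(tm2321);mir-43(M2) larvae and 6951 ± 105 CPM (n = 2) in ebax-1(tm2321) larvae. The log2 fold changes were -1.53 (SE 0.56, adjusted p = 0.19) without ebax-1(tm2321) and -2.22 (SE 0.61, adjusted p = 0.060) with it. With the mir-43(M3) strains left out, an alternative chosen after seeing the data, the adjusted p-values were 6.6e-04 and 4.9e-05.

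The variant form was also higher in each library without EBAX-1 than in those with it, but the main fit did not call the difference. mir-42_g8t had 1662, 1466 and 1408 CPM in ebax-1(tm2321);mir-43(M2) larvae and 728, 772 and 729 CPM in mir-43(M2) larvae, with no overlap. Its log2 fold change was 1.13 (SE 0.74, adjusted p = 0.34, 5.29% of strands called higher) with all 23 libraries and adjusted p = 7.8e-04 with those 2 groups only. For the sum of both rows it was 1.06 (SE 0.55, adjusted p = 0.21). Its adjusted p was 0.0049 without the mir-43(M3) strains, an alternative chosen after seeing the data. The difference of that summed effect from the effect with wild-type mir-43 was -0.69 (SE 0.82, adjusted p = 0.83).

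In the mir-43(M3) strains neither row held more than 29.4 CPM. The mir-42 row had 1.36, 10.9 and 29.4 CPM in mir-43(M3) larvae, from 11, 89 and 191 counts, and the lowest wild-type library was 40.9 times the highest of these. In ebax-1(tm2321);mir-43(M3) larvae it had 2, 3 and 0 counts, of which the 3 counts came from the shallowest library, and the lowest ebax-1(tm2321) library was 694 times the highest of these. The tests gave adjusted p = 3.9e-04 without ebax-1(tm2321) and 1.3e-05 with it, with 1.76% of strands called lower in each. The M3 counts too were known beforehand, which limits these p-values in the same way. The count of 0 of the mir-42 row in ebax-1(tm2321);mir-43(M3) replicate 3 allows a level of up to 0.365 CPM, taking 3 counts as the limit and covering counting error only. mir-42_g8t had at most 11.2 CPM in the M3 strains.

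Counts of this size were also found for rows of alleles that a strain did not carry. The mir-43m1, mir-43m2 and mir-43m3 rows reached 64.1, 56.4 and 58.8 CPM in libraries of strains without those alleles, with medians of 0.371, 4.29 and 1.67 CPM. The mir-42 row in the M2 and M3 strains lay in that range in every library but mir-43(M2) replicate 3, which had 90.7 CPM. That same library held the 64.1 CPM of mir-43m1. Whether the M3 strains make a form of miR-42 that no row counts was not tested.

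**Figure D5:**
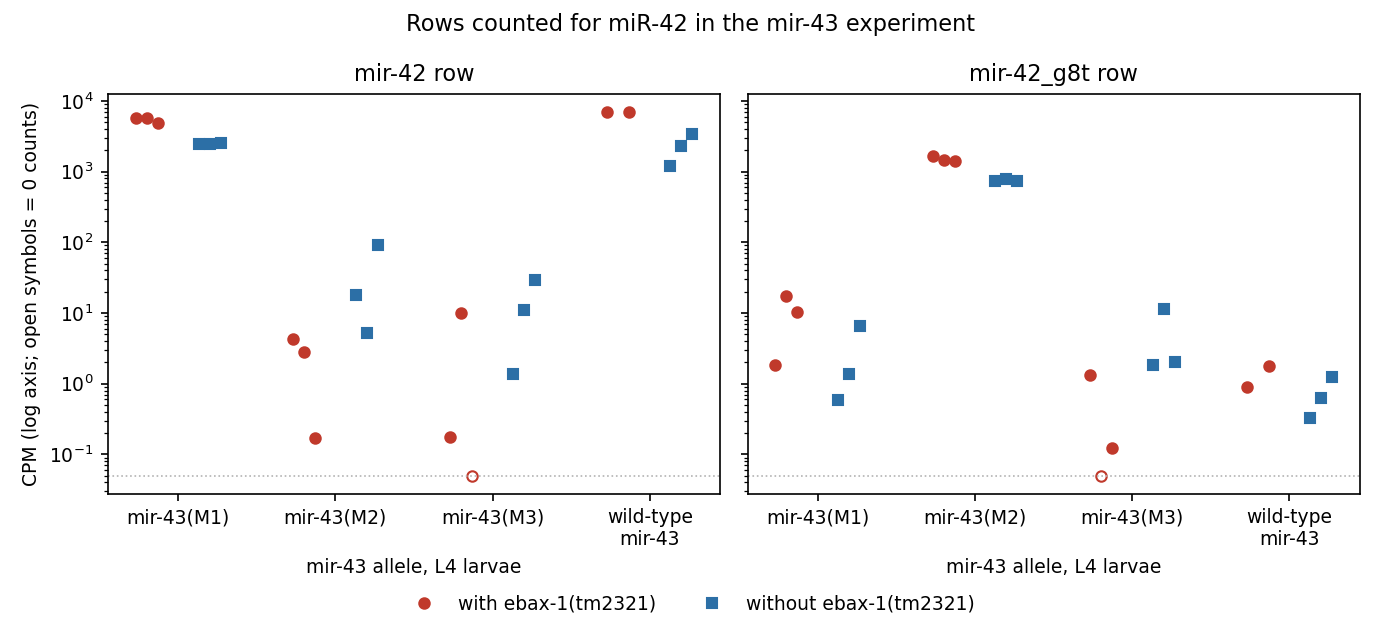
CPM (log axis) of the mir-42 row (left panel) and the mir-42_g8t row (right panel) in each library of the mir-43 experiment, by mir-43 allele, with ebax-1(tm2321) (red circles) left of larvae without it (blue squares), and open symbols on the dotted line for 0 counts. The mir-42 row is at 1202 CPM or more with M1 or wild-type mir-43 and at 90.7 CPM or less with M2 or M3, and mir-42_g8t is at 728 to 1662 CPM with M2 and at 17.3 CPM or less with the other alleles.

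The other strands of the transcript showed which rows changed with the edited alleles. The passenger mir-42* had 1.19, 1.34 and 1.43 CPM in mir-43(M2) larvae and 29.4, 24.8 and 16.7 CPM in wild-type larvae, a log2 fold change of -4.15 (adjusted p = 1.3e-06). It had 2 counts in 1 of the 3 mir-43(M3) libraries, and 0 in the other two and in all 3 ebax-1(tm2321);mir-43(M3) libraries, where 0 counts allow up to 0.263 to 9.91 CPM. No row was counted for a variant of mir-42*, and whether the M2 and M3 strains make a form of this passenger that no row counts was not tested. The guide of miR-44, on the far side of the edited hairpin, differed by -0.24 between mir-43(M2) and wild type (adjusted p = 0.54) and by 0.06 between mir-43(M3) and wild type (adjusted p = 0.96). The edited miR-43 guides were counted in their own strains, at 3203, 2386 and 2832 CPM for mir-43m2 in mir-43(M2) larvae and at 5700, 6036 and 5607 CPM for mir-43m3 in mir-43(M3) larvae.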

How the data were processed

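Small-RNA reads had been processed by the authors with cutadapt and FASTX tools and assigned by their first 19 bases to a curated list of miRNA strands, in which miR-44 and miR-45 shared 1 entry. The deposited values are raw counts per strand and library, without spike-ins; tool versions are not given in the sources used here, and the labels name WBcel235. The gravid adult libraries had been published before. Groups came from the labels. The study calls the time-course replicates biological; the sources used here do not say how cultures were kept apart, and p-values measure only the spread between these libraries. The least different replicate pair differed by a chi-square of 23.6 per degree of freedom, so all were counted.

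CPM were computed per 1000000 miRNA counts. Strands with mean CPM + 1 of at least 5 in the controls were tested with edgeR 4.0.16 (R 4.3.3, TMM, quasi-likelihood, Benjamini-Hochberg over all strands), each stage or pair of stages in its own fit and the 23 mir-43 libraries in 1. Thresholds were 0.01 for genotype and strain effects and 0.05 for stages and differences of effects. Ratios of guide to passenger were tested with limma 3.58.1 on log2(CPM + 1), with the spread shared over all hairpins tested. Alternatives were library-size scaling, DESeq2 1.42.0, no filter, a replicate block, 1 fit of all time-course libraries, 2 groups only, a pseudocount of 5 and leaving out each library, and, chosen after seeing the data, leaving out the M2 and M3 strains. TMM and totals alone placed the median strand more than 0.1 (log2) apart in 20 of 44 comparisons, by -0.31 to 0.50, and changes are relative to TMM. The scripts were tested on simulated data.

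The strand, the passenger, the family and the neighbours were chosen with earlier results of these data known, the L2 level and the M2 and M3 counts included. The named strands were miR-42, its passenger, the other strands of both clusters, and the 5 most like miR-42. 0 columns were left unused.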

Additional observations from a re-analysis of the deposited data

Results flagged for a closer look

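The effect of ebax-1 on the miR-42 guide differed between neighbouring stages by a test of the difference itself. The later stage's log2 effect was above that of late embryos by 2.46 in L1, below that of L1 by -2.41 in L2 and above that of L2 by 1.86 in L3, and it was above that of early embryos by 0.38 in late embryos, a call lost under all 5 other settings and without 7 of the 8 libraries in turn (-0.12 to 0.40). For the passenger mir-42* the effect was lower in late than in early embryos by -0.91 (adjusted p = 0.0084), higher in L2 than in L1 by 2.41 (adjusted p = 0.0047) and lower in L3 than in L2 by -2.10 (adjusted p = 0.011). At L2 and L3 these differences had opposite signs in guide and passenger. Groups of 2 or 3 libraries were not examined for a single library far from the rest.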

How the results depend on the processing

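Apart from the values below, the fold changes of miR-42 kept their direction and their side of the threshold in 208 recomputations with another scaling, tool, filter or model and in 227 that left out 1 library. The causes of the changes were not tested. In germline-depleted adults the ebax-1 effect passed the threshold with library size alone (3.67), DESeq2 (3.70), no filter (3.77) and 1 fit of all time-course libraries (3.67), and in gravid adults with DESeq2 (2.18) and that fit (1.91). That 1 fit ended the calls for the late embryo effect (0.49), for late against early embryos in controls (-0.40) and mutants (-0.020) and for L4 against L3 in controls (0.54), turned the uncalled mutant steps from L3 to L4 (0.030) and between the adults (0.24), and called the difference of effects between the adults (1.75). The mutant step between the embryo stages was also lost with library size alone (-0.087) and no filter (-0.27), and the difference of effects there was lost with library size alone (0.20), DESeq2 (0.26), no filter (0.13) and the 1 fit (0.38). The uncalled mutant step from L3 to L4 was 0.062 with no filter, and the uncalled difference between the L4 experiments was -0.014 with library size alone and -0.027 with DESeq2.

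In the mir-43 experiment, fits of the 2 groups compared alone called the ebax-1 effect in mir-43(M1) (1.22) and on mir-42_g8t in mir-43(M2) (1.13) and lost mir-43(M2) against wild type (-5.93, adjusted p = 0.028). Without the M2 and M3 strains, an alternative chosen after seeing the data, the effect with wild-type mir-43 was called (1.72), and without the M3 strains so were the summed values for the ebax-1 effect in mir-43(M2) (1.06), mir-43(M2) against wild type (-1.53) and ebax-1(tm2321);mir-43(M2) against ebax-1(tm2321) (-2.22). The guide to passenger ratio with a pseudocount of 5 was called in early embryos (-0.55), germline-depleted adults (3.13) and the mir-43 experiment (2.13) and was not in L2 (-0.81), and without the M2 and M3 strains it was called with wild-type mir-43 (2.21) and in mir-43(M1) (1.47).

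The labels do not say that replicate numbers mark a shared batch. The paper did match mutant and wild-type libraries by replicate when it estimated the share of miRNAs lost through EBAX-1, whereas the main tests here were unpaired. With 3 pairs the deviations of same-numbered libraries correlated above 0.1 in every pair for some pairs of groups only. With the replicate number as a block, 50 of 57 calls were the same. The block ended the calls for the L4 effect (1.76), the difference of effects between embryo stages (0.38) and the ratio in L2 (-1.01) and ju699 larvae (2.33), called the germline-depleted effect (3.90) and the gravid adult ratio (1.28), and gave 0.0030 for the mutant step from L3 to L4.

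Leaving out 1 library gave 1.62 to 1.85 for the ebax-1 effect in L4, 1.91 to 2.29 in gravid adults and 3.14 to 4.67 in germline-depleted adults. It gave -0.63 to -0.33 for late against early mutant embryos, -0.12 to 0.40 for the difference of effects there, -0.33 to -0.10 for mutant L3 against L2, 0.43 to 0.65 for control and -0.18 to 0.033 for mutant L4 against L3, -2.83 to -1.26 for the control adults and 1.02 to 2.59 for the difference of effects between adults. It gave -0.27 to 0.35 for the difference between L4 experiments, -0.16 to 0.48 for mir-43(M1) and -7.57 to -5.41 for mir-43(M2) against wild type. The ratio was -0.71 to -0.41 in early embryos, -1.27 to -0.74 in L2, -0.41 to 1.103 in L4, 2.01 to 3.91 in germline-depleted adults and 1.69 to 2.96 in ju699 larvae. Depth limits the passenger and the near-0 rows most, since 5 CPM is 1.51 counts in the shallowest library.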
